A study of Mus musculus with 16 samples.

Results

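The genes described here make, carry and remove extracellular adenosine. They were chosen by name: the 4 adenosine receptor genes, the surface enzymes Entpd1 and Nt5e, the transporter Slc29a1, and the enzymes Adk and Ada. Of these 9 genes, 5 were measured among 19505 genes tested, each by 1 probe set, and the 4 receptor genes were not analysed here. RNA came from hearts of 10-week-old male wild-type C57BL/6 mice. In the ischemia and reperfusion groups the coronary artery of the front wall (left anterior descending) was closed for 30 min and then reopened for 6 h, 24 h or 72 h. The controls had sham surgery, and their labels give no hours, so the same 4 sham hearts serve every time and a change with time after surgery cannot be told apart from a change with reperfusion. Each of the 4 groups held 4 hearts and 4 arrays. The labels name the heart as the tissue and not the injured wall, so each array may mix injured and uninjured muscle.

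Adenosine outside the cell is made mainly from ATP that leaves stressed cells. The enzyme CD39, encoded by Entpd1, removes phosphates from ATP and ADP to give AMP, and CD73, encoded by Nt5e, removes the last phosphate to give adenosine. Adenosine then acts on its receptors, or enters cells through the transporter ENT1, encoded by Slc29a1. Inside, adenosine kinase (Adk) returns it to AMP, and adenosine deaminase (Ada) turns it into inosine, inside and outside the cell. In the heart adenosine is known for slowing the beat, widening coronary vessels and damping inflammation.

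The start regions of the 3 genes that rose are shown because their transcripts were those with the largest increases of the 5. In the RefSeq annotation of build GRCm38.p6, Nt5e lies at chr9:88327609-88372089, Entpd1 at chr19:40612366-40741602, Ada at chr2:163726571-163750239, Adk at chr14:21052574-21448569 and Slc29a1 at chr17:45585200-45599618. Each sequence runs 5′ to 3′ on the gene's own strand, from 250 bases before an annotated start to 50 bases after it. Nt5e is at chr9:88327359-88327658 on the plus strand, Ada at chr2:163750190-163750489 on the minus strand, and Entpd1 has 2 starts, at chr19:40612116-40612415 and chr19:40659520-40659819, both on the plus strand. Capitals mark the matches to the motifs searched.
Nt5e: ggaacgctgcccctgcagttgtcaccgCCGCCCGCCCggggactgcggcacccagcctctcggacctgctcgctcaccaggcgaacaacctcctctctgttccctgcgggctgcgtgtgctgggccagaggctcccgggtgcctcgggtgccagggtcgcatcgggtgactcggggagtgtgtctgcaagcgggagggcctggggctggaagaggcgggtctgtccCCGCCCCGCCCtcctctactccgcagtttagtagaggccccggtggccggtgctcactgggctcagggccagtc
Entpd1 start 1: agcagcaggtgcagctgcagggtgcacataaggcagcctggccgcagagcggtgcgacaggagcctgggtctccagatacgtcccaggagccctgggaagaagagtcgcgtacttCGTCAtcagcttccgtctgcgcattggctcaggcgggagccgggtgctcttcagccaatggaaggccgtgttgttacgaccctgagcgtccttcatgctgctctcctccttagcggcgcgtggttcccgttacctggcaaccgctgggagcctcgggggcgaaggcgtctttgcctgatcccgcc
Entpd1 start 2: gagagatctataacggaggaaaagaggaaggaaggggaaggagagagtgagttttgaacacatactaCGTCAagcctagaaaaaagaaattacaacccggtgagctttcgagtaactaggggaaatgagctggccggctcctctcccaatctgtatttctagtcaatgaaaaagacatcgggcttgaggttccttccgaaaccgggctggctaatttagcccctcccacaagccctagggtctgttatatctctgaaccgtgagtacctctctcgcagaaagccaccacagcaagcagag
Ada: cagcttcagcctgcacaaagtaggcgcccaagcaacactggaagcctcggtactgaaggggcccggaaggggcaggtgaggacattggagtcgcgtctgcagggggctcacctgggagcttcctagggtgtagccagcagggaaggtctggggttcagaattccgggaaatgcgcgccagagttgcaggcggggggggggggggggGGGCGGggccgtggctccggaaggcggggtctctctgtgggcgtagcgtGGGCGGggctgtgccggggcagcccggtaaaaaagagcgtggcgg
In all, 6 motifs were searched on both strands. In the Nt5e window the capitals are GC boxes (GGGCGG or its reverse complement), with first bases at -223, -219, -24 and -19 from the start, and the members of each neighbouring pair overlap. The Ada window held GC boxes at -44 and 6. Both Entpd1 windows held the short core of the cAMP response element (TGACG or its reverse complement), at -135 in the first and -183 in the second. Of 32851 RefSeq windows of the same length, 35.7% held a GC box and 20.8% held the short core. The full cAMP response element (TGACGTCA, which contains the short core, in 1.79% of windows), the core of the hypoxia response element (ACGTG, 19.6%), the AP-1 site (TGANTCA, 7.81%) and the TATA box (TATAAA, 13.6%) had no match in these windows. These are matches of letters only. The windows of Nt5e and Ada were 71.0% and 68.0% G or C, those of Entpd1 64.0% and 48.7%, against a median of 52.7% over all windows.

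The values below are the deposited log2 values, and each change is a difference of group means on that scale ± SE. A gene is said to rise or fall only if limma's Benjamini-Hochberg adjusted p over all 19505 genes was under 0.05. Levels under 6.76, a value that 75% of negative control readings did not exceed, are called dim. Levels of different genes are not compared. RNA is from whole tissue, so fewer cells of a type and less RNA per cell cannot be told apart. The tissue label was checked on 8 ventricular cardiomyocyte markers, none of which was dim in any group. Some arrays stood apart: 24 h replicate 17 had a score of 10.77 on the first principal component, against 35.09 to 40.66 on the other 24 h arrays, and 24 h replicate 16 had a mean of 10.89 over 7 atrial markers, against a lowest 24 h mean of 7.63. At 72 h, replicates 21 and 23 were the highest in atrial markers. Results were therefore also computed without these 4 arrays.

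**Figure D1:**
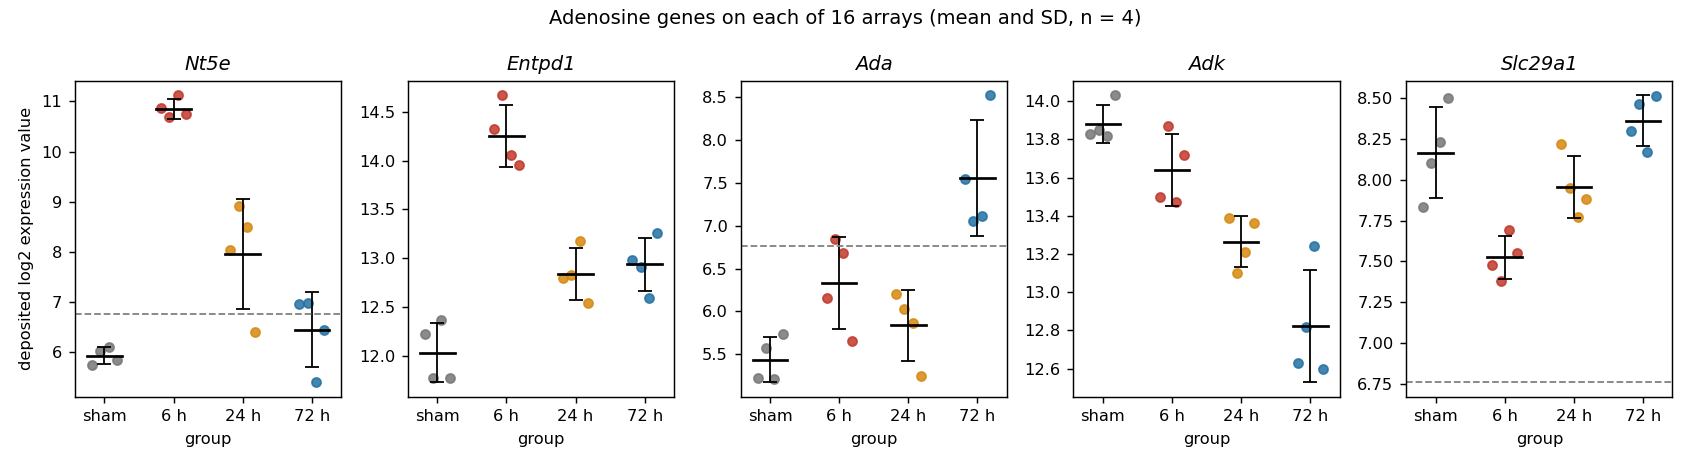
Log2 value of each adenosine gene on each of 16 arrays, in sham hearts and after 6, 24 and 72 h of reperfusion; bars are the mean and SD of 4 arrays. Nt5e and Entpd1 are highest at 6 h, Ada is highest at 72 h and Adk is lowest at 72 h.

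Nt5e had the largest change of the 5 genes. At 6 h it was at 10.86, 10.68, 11.12 and 10.74, against 5.74, 6.03, 6.11 and 5.85 in sham hearts. The 4 arrays at 6 h were all above all sham arrays, and all 4 sham arrays lay below the dim level of 6.76. Nt5e rose by 4.92 ± 0.39 at 6 h (95% interval 4.09 to 5.74, adjusted p = 3.26e-08), the 26th largest change in size of the 19505 genes. A fold of 30.2 on the deposited scale follows, and its size depends on the dim sham level.

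By 24 h Nt5e was lower than at 6 h but still above sham. Its values were 8.04, 8.91, 8.49 and 6.41 on replicates 14 to 17, against the sham values given above. All 24 h arrays were above all sham arrays, and replicate 17, which stood apart, was the lowest and below the dim level. The rise over sham at 24 h was 2.03 ± 0.39 (adjusted p = 0.000667), and it was 2.54 without the 4 arrays that stood apart. At 24 h against 6 h the change was -2.89 ± 0.39 (adjusted p = 2.03e-05). At 72 h the values were 6.96, 6.99, 5.40 and 6.45, overlapping sham, and the change of 72 h against sham, between 2 dim means, was 0.52 ± 0.39 (95% interval -0.31 to 1.34, adjusted p = 0.39). The change at 72 h against 24 h was -1.51 ± 0.39 (adjusted p = 0.0139), but it did not pass without 24 h replicate 15 (adjusted p = 0.0651) or 16 (0.0523), without 72 h replicate 22 (0.0587), or in a fit of those 2 groups alone (0.0653).

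Entpd1, whose enzyme acts before CD73, was also highest at 6 h, with a smaller change. At 6 h it was at 14.32, 14.67, 14.06 and 13.96, against 12.22, 11.77, 12.36 and 11.77 in sham hearts. The groups did not overlap. Entpd1 rose by 2.22 ± 0.20 (95% interval 1.81 to 2.63, adjusted p = 1.08e-07), a 4.67-fold change on the deposited scale. At 24 h the values were 12.80, 12.83, 13.18 and 12.54, and at 72 h they were 12.98, 12.91, 12.59 and 13.26, all above the highest sham array. Entpd1 was thus higher than sham by 0.81 ± 0.20 at 24 h (adjusted p = 0.00427) and by 0.90 ± 0.20 at 72 h (adjusted p = 0.00219). It was lower at 24 h than at 6 h by a change of -1.42 ± 0.20 (adjusted p = 2.37e-05). Between 72 h and 24 h the difference was 0.10 ± 0.20 (95% interval -0.31 to 0.51, adjusted p = 0.846).

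The transporter Slc29a1 fell at 6 h. Its values were 7.48, 7.38, 7.69 and 7.55 at 6 h, against 7.83, 8.10, 8.23 and 8.50 in sham hearts. Every 6 h array lay below every sham array. The change was -0.64 ± 0.15 (95% interval -0.96 to -0.31, adjusted p = 0.0053). At 24 h the values were 8.22, 7.95, 7.77 and 7.88, and at 72 h they were 8.30, 8.46, 8.17 and 8.51, and both groups overlapped sham. The changes against sham were -0.21 ± 0.15 at 24 h (adjusted p = 0.372) and 0.20 ± 0.15 at 72 h (adjusted p = 0.401). Slc29a1 was higher at 72 h than at 6 h by 0.84 ± 0.15 (adjusted p = 0.000341). Its rise of 0.43 ± 0.15 at 24 h over 6 h (adjusted p = 0.0432) passed in 13 of 26 alternatives. It did not pass after quantile normalization (adjusted p = 0.0708) or median centring of the arrays (0.105), nor without 6 h replicate 7 (0.087), 8 (0.099) or 11 (0.0671), 24 h replicate 14 (0.142) or 15 (0.0774), sham replicate 3 (0.0504) or 4 (0.0516), or 72 h replicate 20 (0.0515) or 21 (0.0517). At 72 h against 24 h the difference was 0.40 ± 0.15 (adjusted p = 0.103).

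Adk, the kinase that returns adenosine to AMP, fell at 24 h and 72 h. It was at 13.50, 13.87, 13.47 and 13.72 at 6 h, at 13.39, 13.10, 13.21 and 13.36 at 24 h, and at 12.63, 12.82, 13.24 and 12.60 at 72 h, against 13.83, 13.85, 13.82 and 14.03 in sham hearts. The 24 h and 72 h arrays were all below all sham arrays, while the 6 h arrays overlapped sham. The changes were -0.24 ± 0.15 at 6 h (adjusted p = 0.33), -0.62 ± 0.15 at 24 h (adjusted p = 0.00498) and -1.06 ± 0.15 at 72 h (95% interval -1.38 to -0.74, adjusted p = 4.49e-05). The last is a level of 0.48 of sham on the deposited scale. Adk was also lower at 72 h than at 6 h, with a change of -0.82 ± 0.15 (adjusted p = 0.000389). Its difference at 24 h against 6 h (-0.38 ± 0.15, adjusted p = 0.0746) did not pass on the deposited scale or in 21 of 26 alternatives, over which it ran from -0.48 to 0.15. Its difference at 72 h against 24 h (-0.44 ± 0.15, adjusted p = 0.0674) did not pass there or in 22 of 26 alternatives. It passed with only genes above the median of all probe sets (adjusted p = 0.0367) and with trend and robust eBayes (0.033). It also passed with array weights (0.0427) and without 72 h replicate 22 (-0.58, adjusted p = 0.0144).

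Ada, which removes adenosine as inosine, was highest at 72 h. Its values were 6.16, 6.84, 6.68 and 5.65 at 6 h, 6.20, 6.03, 5.87 and 5.25 at 24 h, and 7.54, 7.05, 7.11 and 8.52 at 72 h, against 5.22, 5.57, 5.21 and 5.74 in sham hearts. All 72 h arrays were above all others, the 6 h and 24 h arrays overlapped sham, and every sham and 24 h array was dim. At 72 h Ada rose by 2.12 ± 0.30 (95% interval 1.49 to 2.75, adjusted p = 3.57e-05), 4.34-fold on the deposited scale. It was higher at 72 h than at 24 h by 1.72 ± 0.30 (adjusted p = 0.000615) and than at 6 h by 1.22 ± 0.30 (adjusted p = 0.00411). At 24 h the change against sham was 0.40 ± 0.30 (adjusted p = 0.37), and the difference from 6 h was -0.50 ± 0.30 (adjusted p = 0.236). The rise at 6 h, 0.90 ± 0.30 (adjusted p = 0.0399), lay between dim means of 6.34 at 6 h and 5.44 in sham hearts and passed in 17 of 26 alternatives. It did not pass with array weights (adjusted p = 0.0512) or with centring on the hybridization (0.127) or poly-A spike-ins (0.143). It also did not pass without sham replicate 2 (0.101), 3 (0.0585) or 4 (0.104), or without 6 h replicate 7 (0.0549), 8 (0.127) or 10 (0.12).

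**Figure D2:**
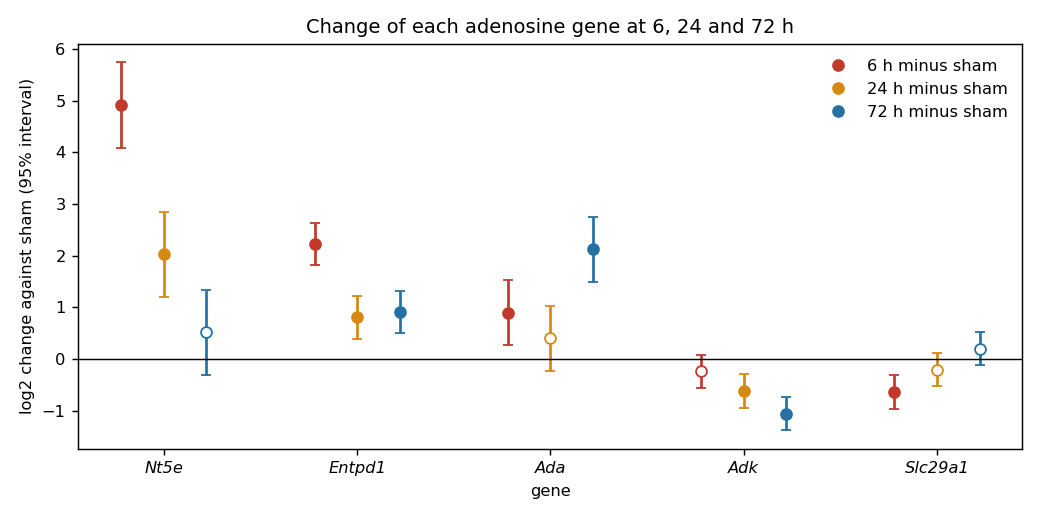
Log2 change of each adenosine gene against sham at 6, 24 and 72 h, with the 95% interval from limma; filled points passed an adjusted p of 0.05. The 6 h changes of Nt5e and Entpd1, at 4.92 and 2.22, lie above those at 24 and 72 h, while Ada and Adk have their largest changes at 72 h.

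Of the 5 genes, 4 passed the test at 6 h, where 20.2% of all genes passed; 3 were higher (7.92% of all genes were) and 1 was lower (12.3%). At 24 h 3 passed, against 26.1% of all genes, with 2 higher (13.8%) and 1 lower (12.3%). At 72 h 3 passed, against 21.8%, with 2 higher (11.5%) and 1 lower (10.3%). For 24 h against 6 h 3 passed, where 28.2% of all genes did, with 1 higher (17.3%) and 2 lower (10.9%). For 72 h against 24 h 2 passed, where 12.9% did, with 1 higher (6.85%) and 1 lower (6.07%). For 72 h against 6 h all 5 passed, where 30.6% did, with 2 higher (17.5%) and 3 lower (13.1%). Groups did not overlap for 3 of the 5 genes at 6 h, against 22.8% of all genes, for 3 at 24 h, against 25.9%, and for 3 at 72 h, against 27.1%. The comparisons share arrays, so these counts are not independent. The members were chosen with earlier results of these data known, so the counts are not those of an independently chosen set.

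The scale of the arrays bears on the smaller changes. Centring the arrays on the hybridization spike-ins, control transcripts added before the array step, brought the median over all genes, relative to sham, to -0.26 at 6 h, 0.24 at 24 h and 0.40 at 72 h, from -0.04, -0.07 and -0.09 on the deposited scale. Under that centring Nt5e was higher than sham by 4.69 at 6 h and Entpd1 by 2.00. Adk was then at -0.31 at 24 h, no longer past the threshold (adjusted p = 0.197), and at -0.56 at 72 h (adjusted p = 0.0133). The difference of Adk between 72 h and 6 h was -0.10 (adjusted p = 0.587), and with poly-A centring -0.29 (adjusted p = 0.214). At 72 h Nt5e passed, at 1.01 (adjusted p = 0.0419), as did Slc29a1, at 0.69 (adjusted p = 0.00959), and Entpd1 stood at 1.40. Centring on the poly-A spike-ins, added to the RNA before labelling, put Slc29a1 at -0.98 and Adk at -0.58 (adjusted p = 0.0265) at 6 h. Entpd1 differed between 24 h and 6 h by -0.89, and between 72 h and 6 h by -0.60, under the hybridization centring. For the pair 72 h and 6 h, that centring put Ada at 1.94 and Slc29a1 at 1.55.

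Markers of some other cell types also changed against sham. Over all genes, 20.2% passed at 6 h, 26.1% at 24 h, 21.8% at 72 h and 28.2% for 24 h against 6 h. Markers of neutrophils, blood cells that arrive early in injured muscle, had array means between 7.09 and 9.27 at 6 h, 5.99 and 9.60 at 24 h, and 5.12 and 6.59 at 72 h, against 3.99 and 4.48 in sham hearts. Of 7 measured neutrophil markers, 6 rose at 6 h, 7 at 24 h and 2 at 72 h, where hybridization centring gave 5, and all 7 were below the dim level in every sham array. Their median difference at 24 h against 6 h was 0.08, with 2 higher and 2 lower, while Nt5e and Entpd1 were lower. Monocyte and macrophage markers had array means of 8.79 to 9.33 at 6 h, 10.28 to 12.39 at 24 h and 10.77 to 11.67 at 72 h, against 7.70 to 7.88 in sham hearts. Of 7, 3 rose at 6 h and all 7 at 24 h and at 72 h, and all 7 were higher at 24 h than at 6 h, with a median difference of 2.00. CD39 and CD73 are known on endothelial and immune cells. The 7 endothelial markers had array means of 12.02 to 12.30 at 6 h and 11.79 to 12.17 at 24 h. They were at 11.78 to 12.02 at 72 h, against 12.08 to 12.31 in sham hearts. At 6 h 2 rose and 2 fell, with 0 rising under either spike-in centring. At 24 h and at 72 h 0 rose and 2 fell. Hybridization centring gave 3 higher and 1 lower at 24 h, and 1 higher and 0 lower at 72 h. The part of these cells in the changes of Nt5e, Entpd1 and Ada was not tested.

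**Figure D3:**
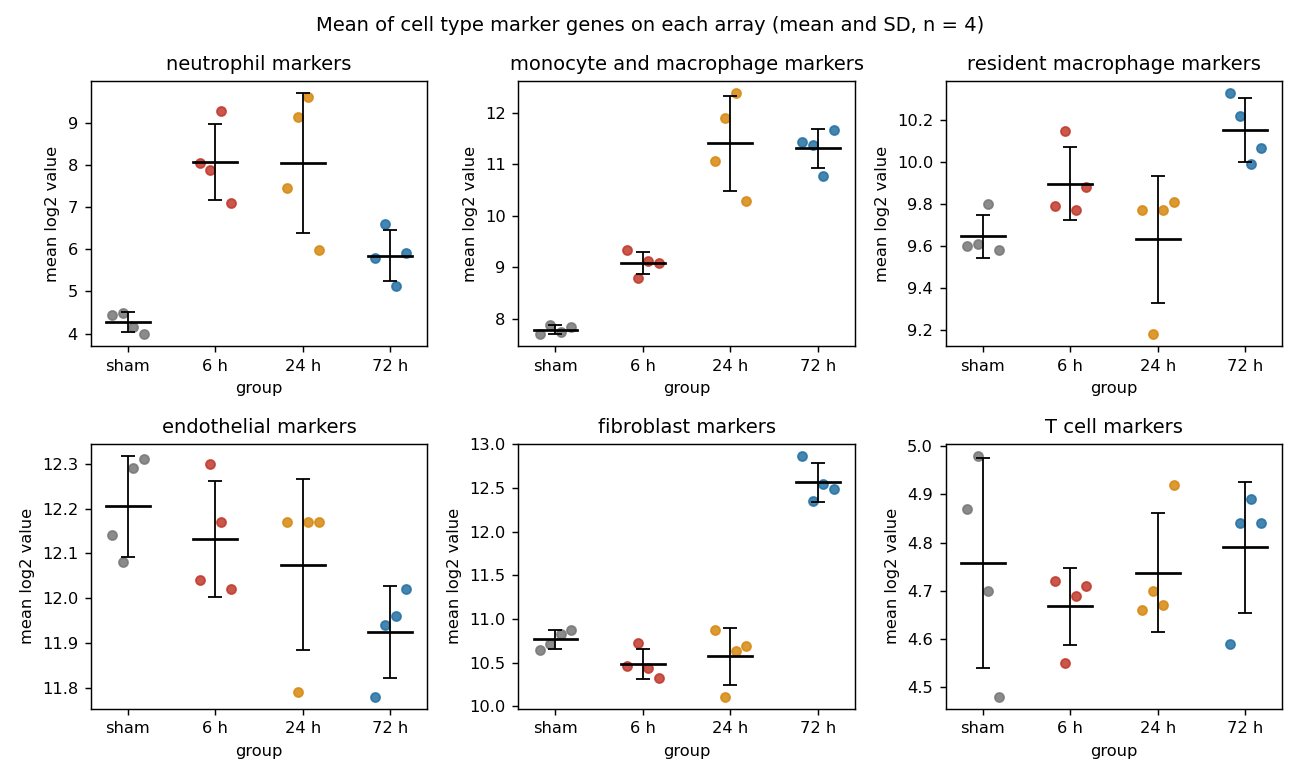
Mean log2 value of 6 marker lists on each array, in sham hearts and after 6, 24 and 72 h of reperfusion; bars are the mean and SD of 4 arrays. Neutrophil markers are above sham on every array at 6, 24 and 72 h, monocyte and macrophage markers are highest at 24 and 72 h, and fibroblast markers are highest at 72 h.

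On single arrays, 24 h replicate 17 had both the lowest Nt5e (6.41) and the lowest neutrophil mean (5.99) of its group. It also had the lowest Entpd1 (12.54), the lowest monocyte and macrophage mean (10.28) and the highest cardiomyocyte mean (17.62). At 72 h replicate 22 had the lowest Nt5e (5.40), the lowest neutrophil mean (5.12) and the highest Adk (13.24). Its Entpd1 (12.59) and monocyte and macrophage mean (10.77) were also the lowest, and its cardiomyocyte mean (17.71) the highest. At 72 h 6 of 7 neutrophil markers were below the dim level on every array. At 6 h replicate 11 had the lowest neutrophil mean (7.09) and replicate 8 the lowest Nt5e (10.68). Fibroblast markers had array means of 12.35 to 12.87 at 72 h, against 10.65 to 10.88 in sham hearts. Of 7, 6 rose at 72 h, the time at which Ada was highest. At 6 h 0 rose and 1 fell, and at 24 h 2 rose and 2 fell. Of the 72 h arrays, replicate 23 had the highest Ada (8.52) and the highest monocyte and macrophage mean (11.67). Replicate 20 had the highest fibroblast mean (12.87), with Ada at 7.54. The 8 resident macrophage markers had array means of 9.99 to 10.33 at 72 h, against 9.58 to 9.80 in sham hearts, and 4 rose and 1 fell. At 6 h 3 of them rose and 1 fell, and at 24 h 2 rose and 1 fell. The 8 cardiomyocyte markers had array means of 17.73 to 17.83 at 6 h, 17.28 to 17.62 at 24 h and 17.50 to 17.71 at 72 h, against 17.83 to 17.86 in sham hearts. Of these, 4 fell at 24 h and 3 at 72 h, while with hybridization centring 1 was lower at 24 h, and 3 were higher and 0 lower at 72 h. Their mean was lowest at 24 h and that of Adk at 72 h. Mural cell markers fell in 4 of 8 at 6 h and at 24 h, and in 3 at 72 h, when 1 rose, while with hybridization centring 3 were higher and 0 lower at 72 h. By limma, 0 of 6 T cell and 0 of 4 B cell markers passed against sham at any time on the deposited scale; at an unadjusted p under 0.05 the counts were 0, 0 and 0 T cell and 1, 0 and 0 B cell markers at 6, 24 and 72 h, and with hybridization centring 3 T cell markers were higher at 72 h. All 4 B cell markers were below the dim level on every array. Of the 6 T cell markers, 5 were below it on every sham array, and all 6 on every array at 6, 24 and 72 h. These counts therefore rest on signals near the negative controls. Of 6 mast cell markers, 1 fell at 24 h and 1 at 72 h, where hybridization centring gave 3 higher and 0 lower. In each group 4 of the 6 were below the dim level on every array. Of 7 atrial markers, 1 rose and 1 fell at 24 h, and 2 rose and 1 fell at 72 h, while of 2 erythroid markers 1 fell at 72 h. On the deposited scale 20.2% of all genes passed at 6 h, 26.1% at 24 h and 21.8% at 72 h. The part of any of these cell types in the adenosine gene changes was not tested.

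Of the other genes that break down or salvage adenine nucleotides, 27 of 31 listed were measured. In this list 3 rose and 5 fell at 6 h, where 20.2% of all genes passed. At 24 h 6 rose and 5 fell (26.1% of all genes passed), and at 72 h 6 rose and 2 fell (21.8%). Their median change was -0.17, -0.16 and -0.12, against -0.04, -0.07 and -0.09 for all genes, and it turned to 0.15 at 24 h and 0.38 at 72 h with hybridization centring and to 0.07 at 72 h with poly-A centring. Pnp, which splits inosine, the product of Ada, rose by 1.90 ± 0.32 at 6 h (adjusted p = 0.000253), 1.73 at 24 h and 2.36 at 72 h (adjusted p = 2.55e-05). Aprt, which salvages adenine, rose by 2.46 ± 0.27 at 24 h and 1.84 at 72 h. Xdh, which makes urate, rose by 1.22 ± 0.23 at 6 h and fell by 1.20 at 24 h.

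The remaining named enzymes of nucleotide breakdown moved in both directions. Ampd3, an AMP deaminase, rose by 0.97 ± 0.22 at 6 h (adjusted p = 0.00294). The nucleotidase Nt5c rose by 1.68 ± 0.19 at 24 h and 1.20 at 72 h, while the cytosolic AMP nucleotidase Nt5c1a fell, with changes of -1.45 ± 0.20 at 24 h and -1.12 at 72 h. Nt5m, a mitochondrial nucleotidase, fell by 1.04 ± 0.18 at 6 h. The adenylate kinase Ak4 fell, with changes of -0.91 ± 0.16 at 24 h and -1.63 at 72 h (adjusted p = 5.93e-07). Enpp3, a surface enzyme that splits nucleotides, rose by 1.29 ± 0.22 at 72 h.

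All 12 listed nucleoside transporters and ATP release channels were measured. At 6 h 1 rose and 3 fell, where 20.2% of all genes passed. At 24 h and at 72 h 2 rose and 1 fell, where 26.1% and 21.8% of all genes passed. The median change of the list was 0.03, -0.03 and 0.07. It turned to -0.19 at 6 h and 0.28 at 24 h with hybridization centring, and to -0.31 at 6 h with poly-A centring. Hybridization centring gave 7 higher and 0 lower at 72 h, with a median of 0.56. Panx1, a channel through which ATP leaves cells, rose by 2.24 ± 0.18 at 72 h (adjusted p = 4.1e-08), to a mean of 7.04, against a dim mean of 4.80 in sham hearts, so the size depends on the background. Panx1 also rose by 0.71 at 6 h and 1.40 at 24 h, to means of 5.51 and 6.21 that were dim as well. Its 6 h call was lost with hybridization (adjusted p = 0.0824) and poly-A centring (0.19). The lysosomal transporter Slc29a3 fell by 1.06 ± 0.21 at 6 h and rose by 1.06 at 24 h and 2.08 at 72 h. Slc28a2, a sodium-driven nucleoside transporter, fell by 1.99 ± 0.23 at 6 h (adjusted p = 3.39e-06). At 24 h (-0.64, adjusted p = 0.0487) and 72 h (-0.66, adjusted p = 0.0491) it barely passed. With hybridization centring the values were -0.33 (adjusted p = 0.323) and -0.16 (0.587), and with poly-A centring -0.47 at 72 h (0.285). Without any 1 of 10 arrays each of these calls was lost, up to an adjusted p of 0.195 at 24 h without 24 h replicate 15 and 0.164 at 72 h without sham replicate 5. Slc29a2, a relative of Slc29a1, fell by 0.85 ± 0.27 at 6 h (adjusted p = 0.0311), and this did not pass in a fit of those groups alone (adjusted p = 0.0717) or without any 1 of 6 arrays, up to 0.131 without 6 h replicate 10.

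Of 15 receptors for ATP, ADP and UTP, 14 were measured. At 6 h 2 rose and 3 fell (20.2% of all genes passed), and at 24 h 4 rose and 2 fell (26.1%). At 72 h 5 rose and 2 fell (21.8%). The medians of the list at 6, 24 and 72 h were -0.05, 0.11 and 0.07. P2ry1, a receptor for ADP, fell at all 3 times, with changes of -2.63 ± 0.24 at 6 h (adjusted p = 1.95e-07), -2.18 at 24 h and -1.86 at 72 h. P2rx5 rose by 1.74 ± 0.19 at 6 h and 0.87 at 24 h, and P2ry2, a receptor for ATP and UTP, rose by 1.18 ± 0.18 at 6 h. At 24 h P2ry2 was at -0.60 against sham and at 72 h at -0.81, and hybridization centring lost both calls (-0.29, adjusted p = 0.366, and -0.31, adjusted p = 0.261), as did leaving out the 4 arrays that stood apart (adjusted p = 0.155 and 0.0556). The 24 h call was also lost without 24 h replicate 16 (0.0758) or sham replicate 2 (0.0867) or 4 (0.0521). Among the receptors named here, P2rx7, P2ry6, P2rx4 and P2ry12 had their highest means at 72 h, while P2ry1, P2ry2 and P2rx5 did not. At 72 h P2rx7 rose by 2.43 ± 0.23 and P2ry6 by 2.54 ± 0.31. P2rx4 rose by 2.03 ± 0.21 and P2ry12 by 1.92 ± 0.36. P2ry6 (1.85, adjusted p = 0.000183) and P2rx7 (1.16, 0.00072) had also risen at 24 h. P2rx4 (0.48, adjusted p = 0.108) and P2ry12 (0.48, 0.375) did not pass then. All 7 monocyte and macrophage markers were higher at 24 h and at 72 h, with median changes of 4.58 and 3.38. The sham means of P2rx5 (6.65), P2ry6 (6.70) and P2rx7 (6.39) were dim, so the sizes of their rises depend on the background. P2rx4 and P2rx7 fell at 6 h, with changes of -0.92 (adjusted p = 0.00379) and -0.78 (0.0185), to dim means of 6.66 and 5.61. The P2rx7 call at 6 h passed in 22 of 26 alternatives. The part of monocytes and macrophages in the rises at 24 h and 72 h was not tested.

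Adenosine receptors signal through G proteins and cAMP. Of 31 listed G proteins, adenylyl cyclases, phosphodiesterases and related genes, 30 were measured. At 6 h 2 rose and 9 fell (20.2% of all genes passed), and at 24 h 5 rose and 9 fell (26.1%). At 72 h 6 rose and 7 fell (21.8%). The median change of the list was -0.16, -0.15 and -0.24. It turned to 0.16 at 24 h and 0.26 at 72 h with hybridization centring, under which 8 were higher and 2 lower at each of these times. Pde4b, which breaks down cAMP, rose by 2.59 ± 0.38 at 6 h (adjusted p = 4.79e-05), while its relative Pde4a fell by 2.09 ± 0.23 (adjusted p = 1.7e-06). Pde4a was also lower than sham at 24 h (-1.41) and 72 h (-1.34). Gnai3, an inhibitory G protein subunit, rose by 1.29 ± 0.17 at 24 h and 1.26 at 72 h, and its rise of 0.70 at 6 h did not pass with hybridization (adjusted p = 0.0678) or poly-A centring (0.154). Adcy6, a cyclase of heart muscle, fell at 6 h (-1.32 ± 0.25) and 24 h (-0.96), and the 24 h call was lost with hybridization centring (adjusted p = 0.0842) and without the 4 arrays (0.0589). Adcy7 rose by 1.08 at 24 h and 1.45 ± 0.22 at 72 h, against a dim sham mean of 6.25. It was lower than sham at 6 h (-0.76, adjusted p = 0.0168), at a dim mean of 5.50, and this call passed in 23 of 26 alternatives. Pde3a, a phosphodiesterase of heart muscle, fell by 1.34 ± 0.22 at 72 h. It was also lower at 6 h (-0.65, adjusted p = 0.041) and 24 h (-0.86, 0.00565). The 6 h call of Pde3a passed in 18 of 26 alternatives, and its 24 h call was lost with hybridization centring (adjusted p = 0.119). Gnao1 fell by 1.04 ± 0.25 at 6 h and rose by 1.01 at 24 h, and Pde7a fell by 1.12 ± 0.20 at 24 h.

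**Figure D4:**
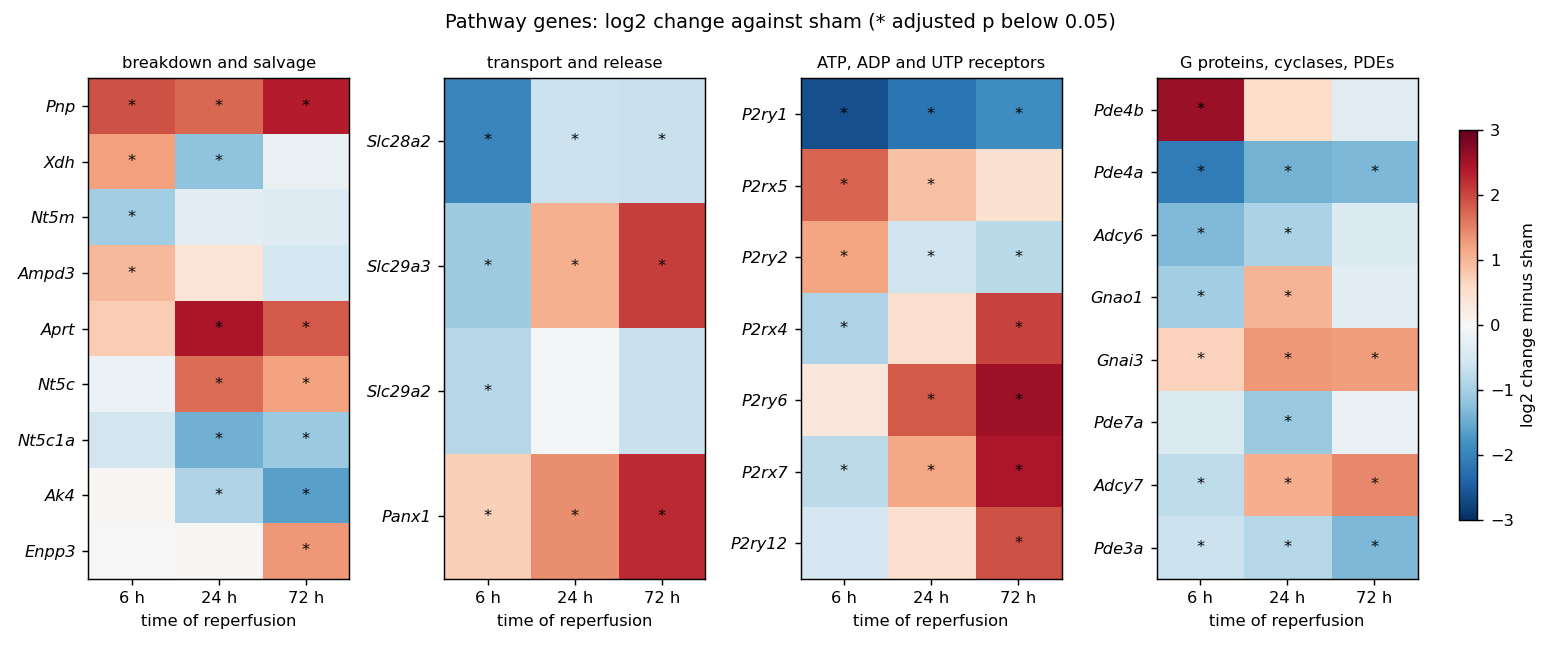
Log2 change against sham at 6, 24 and 72 h of the genes named from the 4 pathway lists, with 1 panel a list; red is higher, blue is lower, and a star marks an adjusted p below 0.05. P2ry1 is lower at all 3 times and Pnp is higher at all 3, while Pde4b is higher at 6 h.

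The genes whose pattern over 16 arrays was most like each adenosine gene were found by the root mean square difference after centring each gene on its own mean. The search and its medians left out the members and genes with only provisional or accession-like symbols. For Nt5e the nearest genes were Ch25h, an enzyme that makes 25-hydroxycholesterol (0.368), Bcr (0.490) and Errfi1, an inhibitor of EGF receptor signalling (0.533). The median over the genes searched was 2.03. Ch25h rose by 5.04 at 6 h and 2.22 at 24 h, from a dim sham mean of 4.87, and Errfi1 by 4.43 and 1.90. The sham mean of Bcr, 5.89, was dim as well. For Entpd1 they were Atp7a, a copper transporter (0.287), Spred1 (0.298) and Zfp948 (0.301), with a median of 0.91. For Ada they were Cenpf, a protein of dividing cells (0.440), the class II antigen-presenting gene H2-Aa (0.445) and the interferon-induced gene Mx1 (0.459), with a median of 0.99. Cenpf and Mx1 had dim means in every group, at most 5.40 and 6.72, both at 72 h. Dap3 (0.172) and Mrpl37 (0.173), both proteins of the mitochondrial ribosome, and Ralgapa2 (0.177) were nearest to Adk, with a median of 0.50. For Slc29a1 they were the ceramide synthase Cers4 (0.124), Serinc5 (0.153) and Zfp935 (0.156), with a median of 0.48.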

How the data were processed

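Gene expression was measured on 16 arrays, 1 per heart. Per the submitters' processing notes, the authors made the deposited log2 values with Affymetrix Expression Console; no source used here gives the summarization method or genome build, and the log base was taken as 2. The values ran from 1.83 to 19.82, which may stretch folds, with array medians of 5.84 to 5.95, and were used as deposited. The design text names another array than the table's identifiers, which were followed, as were the labels' hours where the series title differs.

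The table holds 28846 probe sets, of which 19572 were paired with 1 symbol, 0 with more and 9274 with none here. For 55 genes with several probe sets the one with the highest mean was kept. Group means over 16 arrays were fitted with limma 3.58.1 (R 4.3.3, lmFit and eBayes, no covariates), with Benjamini-Hochberg adjustment over 19505 genes. Precision is limited by the number of arrays, with a median SE of 0.18. The fit was tested on simulated data. Replicate hearts are separate samples per the labels.

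The members and lists were chosen with earlier results of these data known. The text names every measured member, up to 4 genes of each pathway list with the largest change past the threshold at each time against sham, and the 3 genes nearest to each member. The contrast of 72 h with 6 h and the fit without 4 arrays were added after the data were seen. Alternatives covered scaling, filters, eBayes settings, array weights, fits of 2 groups and leaving out each array. Promoters came from RefSeq (GRCm38.p6), and all 5 measured members matched. Figures used matplotlib 3.10.9.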

Additional observations from a re-analysis of the deposited data

Results flagged for a closer look

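In the sham group 1 array stood apart for Adk: replicate 5 was at 14.03, against 13.82 to 13.85 on the other 3, a gap of 0.863 of the group's range, past Dixon's 95% critical value for 4 samples. It was the only such array among 20 groups of values examined, and chance gives about 1 in 20.

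Several changes against sham differed between the times, by limma's test of the difference itself. Nt5e was lower at 24 h than at 6 h (-2.89), at 72 h than at 24 h (-1.51) and at 72 h than at 6 h (-4.40). Its difference between 72 h and 24 h passed in 22 of 26 alternatives. Entpd1 was lower at 24 h than at 6 h (-1.42) and at 72 h than at 6 h (-1.32). Ada was higher at 72 h than at 24 h (1.72) and than at 6 h (1.22). Adk was lower at 72 h than at 6 h (-0.82), which did not pass with hybridization (-0.10, adjusted p = 0.587) or poly-A centring (-0.29, 0.214). Slc29a1 was higher than at 6 h at 24 h (0.43) and at 72 h (0.84), and the 24 h call passed in only 13 of 26 alternatives. These comparisons share arrays.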

How the results depend on the processing

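The counts of calls, the adenosine gene changes and the called changes of the named pathway genes against sham were recomputed under 10 alternatives and without each of the 16 arrays, and none of these calls turned its sign. With poly-A centring 6951 genes passed at 6 h (12.4% of them higher), against 3940 (39.2% higher) on the deposited scale, and 9788 between 72 h and 6 h (93.7% higher), against 5959 (57.2%). With hybridization centring 7517 passed at 72 h (96.7% higher), against 4251 (52.9%), 10350 between 24 h and 6 h (94.8%), against 5507 (61.2%), and 14108 between 72 h and 6 h (96.6%); 5 of the adenosine genes then passed at 72 h, against 3. That centring put the higher share at 19.6% at 6 h, at 84.4% at 24 h, against 53%, and at 79.9% between 72 h and 24 h, against 53.1%. The poly-A share was 82.3% at 72 h, 85.5% between 24 h and 6 h and 86.7% between 72 h and 24 h. Median centring gave 42.5% at 24 h, 35% at 72 h, 45.4% between 24 h and 6 h and 37.7% between 72 h and 6 h. Without the 4 arrays that stood apart, 2464 genes passed at 72 h (64.8% higher) and 1361 between 72 h and 24 h, against 2520; the cause was not tested. In a fit of only those 2 groups 1 adenosine gene passed between 72 h and 24 h, against 2, and leaving out 1 array gave 1 to 2. Between 24 h and 6 h leaving out 1 array gave 2 to 4 adenosine genes. Adk passed between 24 h and 6 h under quantile normalization (-0.43, adjusted p = 0.0485) and median centring (-0.48, 0.0281). It also passed with only genes above the median of all probe sets (0.0441), with trend and robust eBayes (0.0426) and without 72 h replicate 22 (0.0469). With hybridization centring Adk was at 0.15. No paired analysis was possible because no 2 groups share replicate numbers. Signals near the negative controls limit the sizes of the Nt5e, Ada, Panx1, Adcy7, P2rx5, P2rx7, P2ry6 and Ch25h changes.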
